A study of Monodelphis domestica with 7 samples.

Results

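The genes described here are 3 CC chemokine genes of the gray short-tailed opossum, *Monodelphis domestica*, out of 21314 genes in the count table. They were taken by their Ensembl identifiers: ENSMODG00000019162, which the study's gene tables describe as similar to CCL8 and CCL13, ENSMODG00000019159, likened there to CCL11 and CCL13 as well as to CCL2, CCL7 and CCL8, and ENSMODG00000028122, described as similar to CCL3 and CCL4. They are called the CCL8/CCL13-like, CCL2/CCL7-like and CCL3/CCL4-like genes below. None of the 3 has a symbol of its own in those tables, so the names rest on similarity. All 3 passed the filter on low counts, as did 13534 genes in all. The first 2 passed it through the injured cords, since their control counts were 0 or 1.

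RNA was taken from the cord rostral to a complete transection at thoracic level 10, 24 h after injury at postnatal day 7 (P7+24h) or 28 (P28+24h), and from the corresponding segment of uninjured P8 and P29 animals. No genetic change distinguished the groups. Injured pups had isoflurane during surgery. The study states anaesthesia of uninjured controls at P28 but not at P7, so at P7 anaesthesia and injury cannot be told apart from what is stated. All animals were colony-bred pups of both sexes, and all were killed with isoflurane. By the study's methods, P7 pups were injured as entire litters and their controls came from different litters, so litter and injury cannot be told apart at that age, whereas P28 controls were as a rule anaesthetised, uninjured littermates of the injured pups. By the same methods a library was made from RNA pooled over 2 individuals, whereas the sample labels describe RNA extraction from individual samples. The P8 control and both injured groups had 2 libraries apiece, and P29 control cord had 1. Replicate 1 of each group came from sequencing run 1 and replicate 2 from run 2, and the samples of the runs were collected separately, so the P29 control exists in run 1 only.

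Library totals lay between 3332232 and 6256074 counts, and each run 2 library was deeper than each run 1 library. As a check of the tissue, transcripts of OLIG2, a transcription factor of the oligodendrocyte lineage, were at or above 15.8 CPM (counts scaled to a library total of 1000000) in all 7 libraries, and the myelin gene MBP was read in all of them. The neuronal and astrocyte marker lists had no gene with an identifier and were not checked.

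CC chemokines are small secreted proteins with a pair of adjacent cysteines near the amino terminus. CCL2, CCL7, CCL8 and CCL13 of placental mammals are monocyte chemoattractants that act largely through the receptor CCR2, and CCL3 and CCL4 are inflammatory chemokines that act through other receptors of the CC family. In the injured nervous system of placental mammals, microglia, astrocytes and incoming macrophages make such chemokines, and the proteins attract further leukocytes. CCL3 and CCL4 attract T cells and natural killer cells among other leukocytes, and the first group is not limited to monocytes either.

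The CCL3/CCL4-like gene was named by the study as the locus LOC100020928. In the RefSeq gene table of assembly mMonDom1.pri that locus lies in a run of 12 protein-coding genes without assigned names, between HEATR6 and HEATR9, with 6 unnamed genes on the HEATR6 side and 5 on the HEATR9 side. Its nearest neighbours there are LOC100020842 and LOC103100967. The positions of the other two genes were not analysed here. A read that matched near-identical chemokine copies could have been counted on one of them or left out, so the level of each of the 3 genes is uncertain to that extent.

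The CCL8/CCL13-like gene was almost absent from uninjured cord. Reads numbered 1 and 0 in P8 controls (run 1 first) and 0 in the P29 control, whereas injured cords had 18 and 20 at P7+24h and 31 and 37 at P28+24h. In CPM of the library total these were 0.268 and 0 for P8 controls, 4.98 and 3.20 after injury at P7, 0 in uninjured P29 cord, and 9.30 and 6.02 after injury at P28. All injured libraries lay above all control libraries, and both P28+24h values lay above both P7+24h values.

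The CCL2/CCL7-like gene showed the same order of groups. The P8 controls had 0 and 1 counts and the P29 control had 0, against 7 and 10 in the P7+24h injured cords and 15 and 27 in the P28+24h injured cords. These were 0 and 0.178 CPM, then 0 CPM, then 1.94 and 1.60 CPM, and 4.50 and 4.39 CPM. The pairs of injured libraries did not overlap, and within each pair run 1 and run 2 were close.

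The CCL3/CCL4-like gene was read in uninjured cord at both ages. Its counts were 24 and 21 for P8 controls, 228 and 208 after injury at P7, 46 in uninjured P29 cord, and 447 and 244 after injury at P28. In CPM the controls were at 6.44 and 3.74 (P8) and 11.6 (P29), the P7+24h injured cords at 63.1 and 33.2, and the P28+24h injured cords at 134 and 39.7. All injured libraries again exceeded all controls, but the run 2 P28+24h cord lay between the P7+24h libraries, so the injured groups overlapped for this gene. Counting error was small beside this: the 95% exact Poisson intervals were 122 to 147 CPM and 34.9 to 45.0 CPM for the P28+24h cords.

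**Figure D1:**
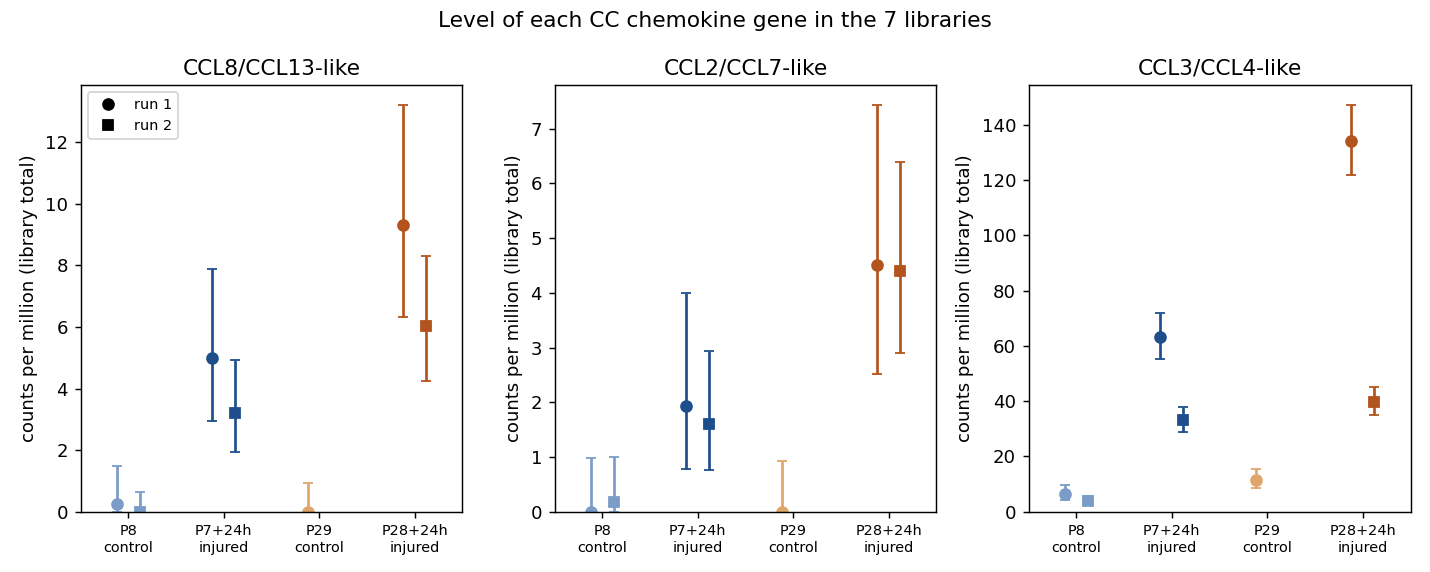
Level of each of the 3 genes in the 7 libraries, in CPM of the library total on a linear axis that differs between panels, with circles for run 1, squares for run 2 and bars for 95% exact Poisson intervals. All 4 injured libraries lie above all 3 controls in each panel, and the P28+24h injured libraries of the CCL3/CCL4-like gene stand far apart, at 134 and 39.7 CPM.

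As group means the levels were, for the CCL8/CCL13-like gene, 0.134 ± 0.190 CPM in P8 controls, 4.09 ± 1.26 at P7+24h, 0 in the single P29 control and 7.66 ± 2.32 at P28+24h (SD, n = 2 except P29). The CCL2/CCL7-like gene averaged 0.0891 ± 0.126, 1.77 ± 0.239, 0 and 4.45 ± 0.0774 CPM in the same order. The corresponding CCL3/CCL4-like means were 5.09 ± 1.91, 48.2 ± 21.1, 11.6 and 86.9 ± 66.8 CPM. From low to high its order was P8 control, P29 control, P7+24h and P28+24h. Of the neighbours in that order the last 2 did not differ beyond their spread, and the controls rest on 1 P29 library.

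A count of 3 was taken as the floor: over a control at 0 a fold is a lower bound computed against 3 counts, over a control of 1 to 3 counts the plain ratio is given with its counting interval and the value against the floor, and no fold is given where both sides are at or under it. It corresponded to 0.480 to 0.900 CPM depending on the library, and floors and counting intervals cover counting error only. In bulk tissue, fewer cells of a type and less RNA per cell cannot be told apart, which applies to all values here.

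The first comparison asked how the cord had responded 24 h after injury at P7. The CCL3/CCL4-like gene was 9.46 times higher in the mean CPM of P7+24h injured than of P8 control cords, and the ratio was nearly alike in the runs: 9.80 in run 1 (95% counting interval 6.42 to 15.6) and 8.88 in run 2 (5.66 to 14.7). For the CCL8/CCL13-like gene the ratio was 18.6 in run 1 on a control count of 1 (2.93 to 773.5), or 6.19 against the floor, and in run 2, with 0 in the control, the injured cord was at least 5.98-fold higher against the floor. For the CCL2/CCL7-like gene the run 1 control was at 0 and the injured cord was at least 2.41-fold higher, and the run 2 ratio was 8.97 on a control count of 1 (1.28 to 389.2), or 2.99 against the floor.

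A gene is said to be called when its Benjamini-Hochberg adjusted p was below 0.05 and its change was 2-fold or larger. The 3 genes were chosen with earlier results of these samples known. A count of them beside the share of all genes is therefore given for scale and is not evidence of an excess. By edgeR's quasi-likelihood test, fitted without a block, no gene of 13534 was called, so 0 of the 3 genes were called as raised against 0% of all genes. The adjusted p was 1 for each of the 3, although their unadjusted p-values in that fit were 0.00267 for the CCL8/CCL13-like, 0.00601 for the CCL2/CCL7-like and 0.006 for the CCL3/CCL4-like gene. With the run as a block, the log2 change of the CCL3/CCL4-like gene was 3.28 (SE 0.32, edgeR quasi-likelihood, adjusted p = 0.00889), the smallest p of all genes tested. The SE without the block was 0.79 on the same change of 3.28. Thus 1 of the 3 genes was called as raised, against 0.0148% of all genes. The CCL8/CCL13-like gene had an adjusted p of 0.117 and the CCL2/CCL7-like gene one of 0.914 in the blocked quasi-likelihood fit, so neither was called in it. Both had passed the low-count filter through the injured cords, so their p-values in any of these fits are not read as independent support. The CCL8/CCL13-like call depended on which library was in the blocked fit. With 1 library left out, edgeR had 1 residual degree of freedom and a group of 1 library, so those fits cannot settle the call. When the blocked fit was tested by likelihood ratio instead, all 3 passed, against 0.266% of all genes called as raised by that test, at 7.89e-07 for the CCL8/CCL13-like gene, 0.0301 for the CCL2/CCL7-like gene and 1.42e-18 for the CCL3/CCL4-like gene. That test takes the estimated spread as known, although 2 residual degrees of freedom were left. It called 36 genes as raised against 2 by quasi-likelihood, so it is more lenient and its small p-values are not stronger evidence.

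Summed levels of macrophage and microglial markers were also higher in both P7+24h libraries than in both P8 controls. The 7 monocyte and macrophage markers with an identifier, of 15 listed, summed to 9.39 to 12.3 CPM in P8 controls and to 31.3 to 63.8 CPM at P7+24h, and none of the 7 was at 0 in these 4 libraries. The 6 microglial markers of 12 summed to 69.2 to 86.3 and 138.3 to 175.8 CPM, with TREM2 at 0 in 1 P8 control. The 3 neutrophil markers of 12 overlapped between the groups, at 3.92 to 18.5 and 7.19 to 27.4 CPM, with S100A9 at 0 in 1 P8 control. Of these 16 markers the blocked quasi-likelihood fit called 0 as raised at P7+24h, against 0.0148% of all genes. The blocked likelihood ratio test called 10, against 0.266%, among them MARCO, C1QA and TREM2. Not among the 10 were CSF1R, TYROBP, SALL1 and the 3 neutrophil markers. The 4 erythroid markers of 8 summed to 63.98 to 338 CPM in P8 controls and 59.94 to 226.9 CPM at P7+24h, and by both tests none was called. The markers with an identifier were those named in the study's tables of changed genes from these samples. Their sums and counts are therefore not independent evidence of cell content. Whether cells of these lists contributed to the chemokine levels was not tested.

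The second comparison asked the same of injury at P28. Expression of the CCL3/CCL4-like gene was 7.47 times higher in the mean CPM of P28+24h injured cords than in the P29 control, but the libraries differed: within run 1 the ratio was 11.5 (8.50 to 16.0), and the run 2 cord was 3.41 times (2.48 to 4.78) the run 1 control, which mixes injury with run. Expression of the CCL8/CCL13-like gene was at least 12.3-fold higher within run 1 against the floor, and the run 2 cord was at least 7.93-fold above the run 1 control. For the CCL2/CCL7-like gene these lower bounds were 5.93 and 5.79.

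Without the block no gene was called at P28+24h, so again 0 of the 3 stood against 0% of all genes raised, and edgeR gave each an adjusted p of 1. With the run as a block the CCL3/CCL4-like gene had a log2 change of 3.31 (SE 0.38, adjusted p = 0.0148), the 3rd smallest p of all genes, against 2.89 (SE 1.01) without it. Next, the CCL8/CCL13-like gene also passed with the block, at an adjusted p of 0.0268, while the CCL2/CCL7-like gene was at 0.0647. So 2 of the 3 were called as raised, against 0.584% of all genes, which given how they were chosen does not show an excess. The CCL8/CCL13-like and CCL2/CCL7-like genes had passed the low-count filter through the injured cords, and their single P29 control was at 0. Their p-values are therefore not read as independent support. Blocked fits with 1 library left out had 1 residual degree of freedom and a group of 1 library. They cannot settle the CCL2/CCL7-like call and are not read as support for it. By likelihood ratio in the blocked fit all 3 passed, against 2.61% of all genes called as raised by it, at adjusted p-values of 3.03e-08 (CCL8/CCL13-like), 0.000281 (CCL2/CCL7-like) and 1.39e-11 (CCL3/CCL4-like). This test was again the more lenient, with 353 genes called as raised against 79 by quasi-likelihood. The blocked fit assumes that run acts alike at both ages, because P29 has no run 2 control, and its spread comes from the other groups. The injured CCL3/CCL4-like libraries did not meet this within counting error. Run 2 was 0.527 times run 1 at P7+24h (0.435 to 0.639) and 0.296 times at P28+24h (0.252 to 0.347). Its blocked change at P28+24h is uncertain to that extent.

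Marker sums also differed at this age. The monocyte and macrophage markers summed to 18.5 CPM in the P29 control and to 77.4 to 122.3 CPM at P28+24h, with SIGLEC1 at 0 in the control, and the microglial markers to 188 and to 315 to 403 CPM. The neutrophil markers summed to 4.81 CPM and to 14.7 to 18.2 CPM. The 3 skeletal muscle markers at hand, of 10 listed, summed to 3.04 CPM in the P29 control and to 31.6 to 64.2 CPM in the injured cords. The 4 erythroid markers summed to 201 CPM in the P29 control. In the injured cords they summed to 430.6 CPM in run 1 and 143.1 CPM in run 2. The run 1 injured cord was thus the higher one, as for the CCL3/CCL4-like gene. Microglial sums (403 CPM in run 1, 315 CPM in run 2) and muscle sums (64.2 and 31.6 CPM) had this order too. Those of the macrophage markers (77.4 and 122.3 CPM) and neutrophil markers (14.7 and 18.2 CPM) had the reverse order. In the blocked quasi-likelihood fit 0 of the 16 macrophage, microglial and neutrophil markers, 1 of the 3 muscle markers and 2 of the 4 erythroid markers were called as raised, against 0.584% of all genes. By the blocked likelihood ratio test these counts were 11 of 16, 3 of 3 and 3 of 4, against 2.61%. Not among the 11 were SIGLEC1, S100A9, CSF3R, TREM2 and SALL1. The blocked log2 change was 0.28 for TREM2 and -0.75 for SALL1. As at P7+24h, the markers were matched through the study's tables of changed genes, so these values are not independent evidence of cell content. The part of the listed cells in the chemokine levels was not tested.

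The third comparison set the uninjured ages side by side. The CCL8/CCL13-like and CCL2/CCL7-like genes were at or under the floor in all 3 control libraries, so no fold is given. In run 1 the CCL3/CCL4-like gene was 1.81 times higher in the P29 than in the P8 control (1.08 to 3.09 by counting error alone). It did not pass in the quasi-likelihood fit without the block, with a log2 change of 1.51 (SE 0.90, adjusted p = 0.426), nor with it, at 0.87 (SE 0.45, adjusted p = 0.171). In the blocked edgeR fit its call changed when P8 control replicate 2, P28+24h replicate 1 or P28+24h replicate 2 was left out. Those fits had 1 residual degree of freedom and cannot settle the call. None of the 3 genes was called as raised, against 1.71% of all genes without and 12.5% with the block.

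Between the injured groups, P28+24h cords had higher levels than P7+24h cords within each run for all 3 genes. The CCL8/CCL13-like gene was 1.87 times higher in run 1 (1.01 to 3.55) and 1.88 times in run 2 (1.06 to 3.42). The CCL2/CCL7-like ratios were 2.32 (0.892 to 6.74) and 2.75 (1.29 to 6.36). For the CCL3/CCL4-like gene P28+24h was 2.13 times higher in run 1 (1.81 to 2.50) and 1.19 times in run 2 (0.988 to 1.44), and the counting intervals of the runs did not overlap.

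Without the block none of these differences passed, the edgeR adjusted p being 0.377, 0.229 and 0.430 for the CCL8/CCL13-like, CCL2/CCL7-like and CCL3/CCL4-like genes, and 2.26% of all genes were called as raised. With the block 2 of the 3 were called: the CCL8/CCL13-like gene with a log2 change of 1.10 (SE 0.37, adjusted p = 0.0334) and the CCL2/CCL7-like gene with 1.52 (SE 0.48, adjusted p = 0.0251). Its CCL3/CCL4-like counterpart had an adjusted p of 0.013 in that edgeR fit, but its fold of 1.87 was under the limit of 2. In the blocked edgeR fit its log2 change was 1.23 without P7+24h replicate 2 and 1.36 without P28+24h replicate 2. Without the block its direction turned, to -0.19, when P28+24h replicate 1 was left out. The background with the block was 13.8% of all genes called as raised, and age and the response to injury cannot be told apart in it. Leaving out either library of P7+24h or of P28+24h ended the CCL8/CCL13-like call. The CCL2/CCL7-like call did not hold without P7+24h replicate 1, P7+24h replicate 2 or P28+24h replicate 2. Those blocked fits had 1 residual degree of freedom and a group of 1 library, so they cannot settle either call. Both genes had passed the low-count filter through the injured cords.

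The response to injury itself was then compared between the ages, as the difference of the log2 changes. It was -0.39 for the CCL3/CCL4-like gene without the block (95% interval -3.19 to 2.41, adjusted p = 0.9999) and 0.03 with it (-1.35 to 1.41, adjusted p = 0.994), both from edgeR. The interval with the block therefore admits differences of more than 2-fold either way, and the direction was not settled. For the CCL8/CCL13-like and CCL2/CCL7-like genes the adjusted p-values with the block were 0.777 and 0.778, and a fitted difference would rest on control counts of 0 and 1. None of the 3 genes was called, against 0% of all genes as raised without and 0.0369% with the block.

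**Figure D2:**
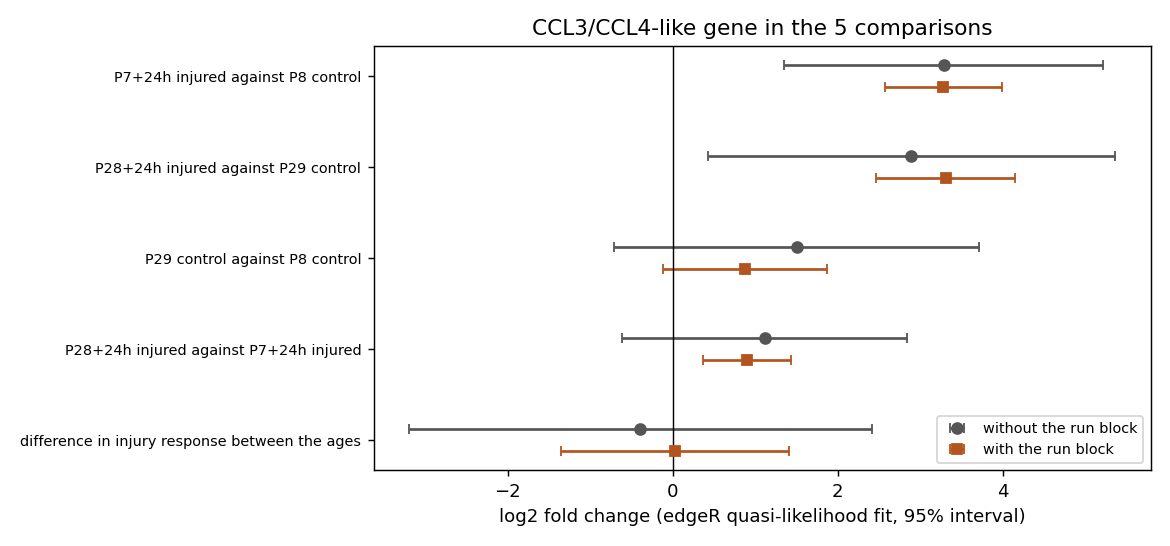
Log2 change of the CCL3/CCL4-like gene in the 5 comparisons from edgeR's quasi-likelihood fit, without (grey circles) and with (orange squares) the run as a block, with 95% intervals as bars and a line at 0. The injury changes are near 3 with both fits and their intervals are narrower with the block, while the difference between the ages lies around 0 in both.

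The 3 genes did not keep one ratio among themselves. The CCL8/CCL13-like and CCL2/CCL7-like genes together took 4% and 4.55% of the counts summed over the 3 genes in the P8 controls, on 25 and 22 counts, and 0 of 46 counts in the P29 control, which allows up to 7.71% (exact Clopper-Pearson, as are the other intervals here). In the P7+24h injured cords the share was 9.88% (6.497 to 14.2) in run 1 and 12.6% (8.67 to 17.5) in run 2. In the P28+24h injured cords it was 9.33% (6.91 to 12.3) in run 1 and 20.8% (16.4 to 25.7) in run 2. The run 2 P28+24h library therefore stood above the run 1 library of its own group beyond counting error, and the P7+24h libraries did not differ beyond it.

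The ratio of the CCL8/CCL13-like to the CCL2/CCL7-like gene rested on low counts. There were 2.57 CCL8/CCL13-like counts for each CCL2/CCL7-like count in P7+24h replicate 1 (95% interval 1.02 to 7.28), 2.00 in replicate 2 (0.893 to 4.79), 2.07 in P28+24h replicate 1 (1.08 to 4.12) and 1.37 in replicate 2 (0.812 to 2.34). All 4 intervals overlapped, at counts of 7 to 37.

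**Figure D3:**
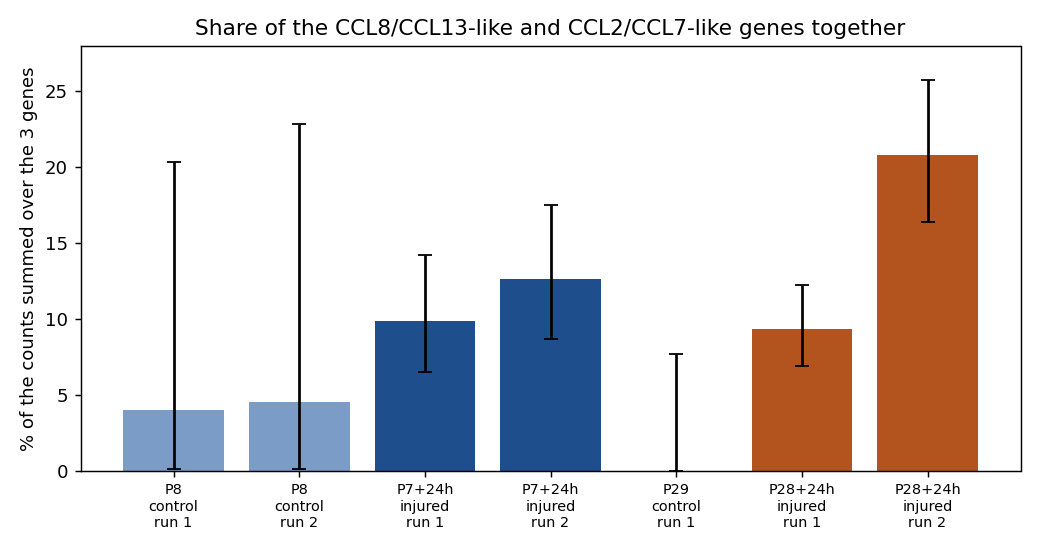
Share of the CCL8/CCL13-like and CCL2/CCL7-like genes, in per cent of the counts summed over the 3 genes, for each library, with bars for exact 95% intervals. The run 2 P28+24h injured cord stands at 20.8%, the other injured cords between 9.33% and 12.6%, and the P29 control at 0.

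The CCL3/CCL4-like gene differed most of the 3 between the runs of the injured groups. In run 2 relative to run 1 its CPM was 0.581 times in P8 controls (0.308 to 1.09), 0.527 times at P7+24h (0.435 to 0.639) and 0.296 times at P28+24h (0.252 to 0.347). On the TMM-scaled log2 scale the P28+24h difference was -1.98, and 1.03% of all tested genes had a lower one. The same measure placed it above 7.48% of genes at P7+24h and 13.1% in P8 controls. By comparison, the CCL8/CCL13-like gene was 0.642 and 0.647 times as high in run 2 of the injured groups and the CCL2/CCL7-like gene 0.825 and 0.976 times, each with a counting interval that included 1. The summed erythroid markers were also lower in run 2 than in run 1 in each of these groups. They were at 63.98 against 338 CPM in P8 controls, 59.94 against 226.9 CPM at P7+24h and 143.1 against 430.6 CPM at P28+24h. Neutrophil sums were lower in run 2 in P8 controls (3.92 against 18.5 CPM) and at P7+24h (7.19 against 27.4 CPM), but not at P28+24h. Microglial and muscle sums were lower in run 2 at P28+24h only, and macrophage sums in none of these groups. The part of these cells in the run difference was not tested. Collection, depth and sequencing differ together between the runs, so they cannot be told apart.

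The genes with the most similar pattern were found by the root mean square (RMS) difference of log2 CPM, centred on each gene's mean, over the 7 libraries, which all genes share. For the CCL8/CCL13-like gene the nearest of the 13533 other genes was the CCL2/CCL7-like gene at 0.54, followed by MARCO, a scavenger receptor of macrophages, at 0.63, the CCL3/CCL4-like gene at 0.69, SPP1, which encodes osteopontin, at 0.81, and VSIG4, a complement receptor of macrophages, at 0.84. For the CCL3/CCL4-like gene the nearest were SPP1 at 0.57 and MARCO at 0.58, then the CCL8/CCL13-like gene at 0.69, C1QB, a chain of complement C1q, at 0.73, and IL1R1, the signalling receptor of interleukin 1, at 0.74. MARCO and SPP1 were thus near to both.

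The MARCO counts were 1 and 2 in P8 controls, 27 and 28 at P7+24h, 2 in the P29 control and 22 and 23 at P28+24h, so its injured groups were about level. SPP1 had 11 and 14, 85 and 77, 31, and 161 and 278 counts in the same order and was highest at P28+24h, as the chemokine genes were.

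The CCL2/CCL7-like gene had other neighbours. They were PSTPIP1, a cytoskeletal adaptor of leukocytes, at 0.46, VAV1, an exchange factor of leukocyte signalling, at 0.51, the genes ENSMODG00000008857 at 0.53 and ENSMODG00000007344 at 0.54, to which no symbol was matched, and the CCL8/CCL13-like gene at 0.54. PSTPIP1 rested on low counts, 0 and 1 in P8 controls, 3 and 5 at P7+24h, 0 in the P29 control and 11 and 10 at P28+24h. The CCL3/CCL4-like gene was 36th in this order, at 0.82. With another prior count or 1 library left out, 2 to 5 of each gene's 5 neighbours were still among the nearest 5, so the order is not firm.

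**Figure D4:**
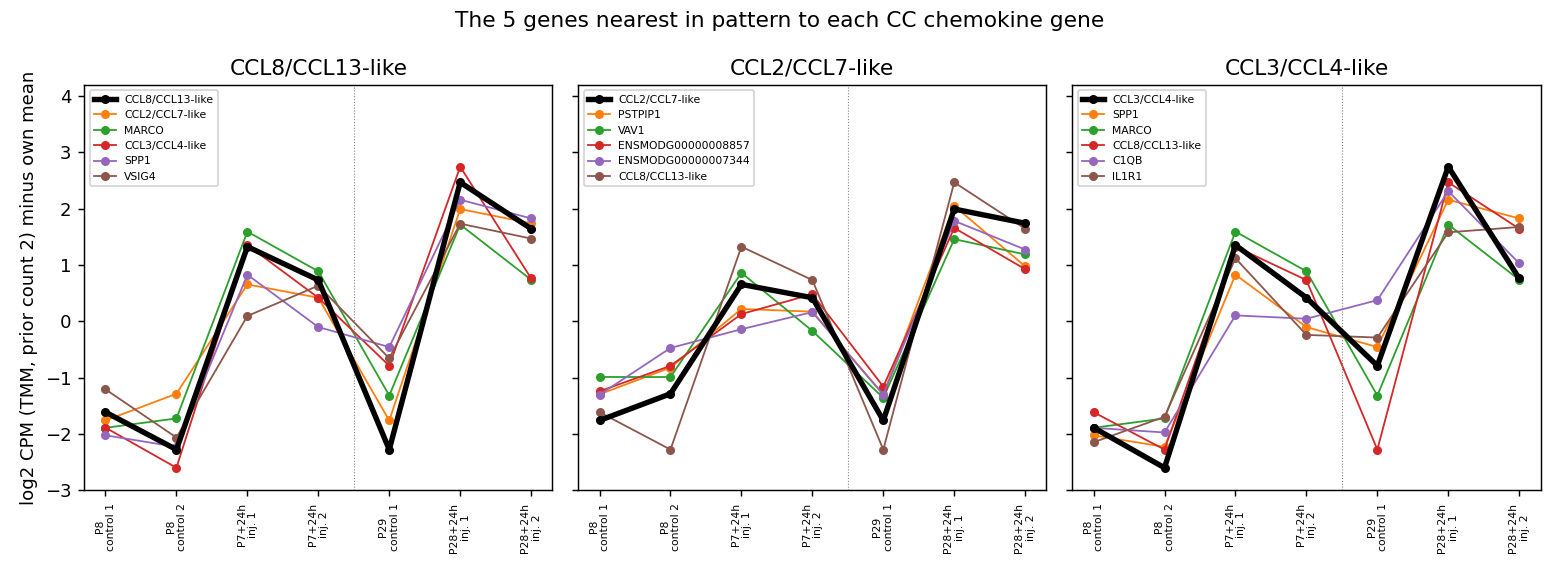
Centred log2 CPM (TMM-scaled, prior count 2) of each of the 3 genes in black and of its 5 nearest genes in colour, by library, with controls and injured cords of the younger age left of the dotted line. Lines join libraries only to make a gene's pattern visible, and in every panel both P7+24h points of a gene lie above its P8 control points.

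Few other genes of the chemokine pathway had an identifier paired with a symbol. None of 24 further CC ligand symbols and none of 27 chemokine receptor symbols, CCR1 and CCR2 among them, could be matched, so their transcripts were not analysed here. The symbols at hand came from the study's own tables of changed genes, chosen on these samples, so a count within a list is not independent evidence of its direction.

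Of 22 other chemokine ligand symbols 1 was matched: CX3CL1, a membrane-bound chemokine that neurons express. It had 16.6 and 55.1 CPM in P8 controls, 13.6 and 52.9 at P7+24h, 42.7 in the P29 control and 13.8 and 77.8 at P28+24h. Runs differed more than groups. With the block it fell by 1.39 on the log2 scale at P28+24h (SE 0.25, edgeR adjusted p = 0.0388), against 0.170% of all genes lowered, and without the block the change was -0.04 (adjusted p = 1). At P7+24h it was -0.12 with the block (adjusted p = 1).

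Of 25 symbols of interleukin 1, TNF and NF-kB signalling, which induces chemokine transcription, 3 were matched. In the blocked quasi-likelihood fit 0 of the 3 were called as raised at P7+24h and 1 at P28+24h, against 0.0148% and 0.584% of all genes, and by the blocked likelihood ratio test 3 and 2, against 0.266% and 2.61%. Their median log2 change in the blocked quasi-likelihood fit was 3.11 and 2.404, beside 0.0045 and -0.0038 over all tested genes. The one called in the blocked quasi-likelihood fit was IL1B, interleukin 1 beta, with 0 and 0 counts in P8 controls, 7 and 8 at P7+24h, 3 in the P29 control and 47 and 110 at P28+24h (edgeR adjusted p = 0.0298 with the block at P28+24h, 0.559 at P7+24h). IL1R1 had 1 and 3, 23 and 14, 7, and 24 and 56 counts, and the TNF receptor TNFRSF1A had 2 and 13, 17 and 35, 29, and 30 and 109. Unlike the CCL3/CCL4-like gene, IL1B had more CPM in run 2 than in run 1 at P28+24h, 17.9 against 14.1.

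Of 21 symbols of chemokine receptor signalling, 3 were matched. The blocked quasi-likelihood fit called none at either age, and the blocked likelihood ratio test called none at P7+24h and 2 at P28+24h, VAV1 (adjusted p = 0.00379) and WAS (0.018), against 2.61% of all genes. VAV1 had 2 and 3, 11 and 8, 1, and 13 and 23 counts. PIK3CG, the catalytic subunit of PI3 kinase gamma, had 3 and 6 counts in P8 controls, 1 and 18 at P7+24h, 13 in the P29 control and 46 and 79 at P28+24h, and WAS, a regulator of actin in blood cells, had 5 and 4, 9 and 7, 9, and 28 and 27. The median log2 change of the 3 with the block was 0.94 after injury at P7 and 1.90 after injury at P28.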

How the data were processed

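The authors trimmed single-end reads of 100 bp, aligned them by Bowtie2 against the Ensembl 69 genome and used HTSeq for counting. The deposited counts are whole reads per gene in 7 libraries, not normalized. No use of strand is stated. The submitters' notes name edgeR 2.6.12. The members and lists were chosen with earlier results of these data known.

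CPM is the count scaled to a library total of 1000000. Fits used edgeR 4.0.16 with TMM factors, filterByExpr (minimum count 10), 4 groups in 1 fit (3 residual degrees of freedom, 2 with the block) and Benjamini-Hochberg adjustment over 13534 genes. Called genes had an adjusted p below 0.05 and changed 2-fold or more. All changes are model estimates; those of genes with control counts of 0 depend on the prior count and are not printed. Replicate numbers pair the libraries, since the labels name the run of each. That the samples of the runs were collected separately is stated in the study's methods. Run differences correlated between groups at 0.802, 0.699 and 0.737 across genes. P-values measure the spread between these pools, and litters differed between injured and control pups at P7. Intervals use exact Poisson or binomial methods.

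Named genes are the 3 members, the 5 genes nearest in pattern to each, matched genes of the pathway lists and the neighbours in RefSeq. Symbols came from the study's tables for 718 identifiers, all in the count table, and no list reached 80% matched, so no list was tested as a whole. The fold change and p-value columns of the study were not used, and no sequence was printed. Some values of the lists are not reported here. The tests were tried on simulated data, with run effects shared by all groups and changes only in genes of higher mean count. That setting does not cover genes near the floor or run effects that differ between groups. Alternatives were edgeR's exact test, DESeq2 1.42.0, RLE factors, library size only, other low-count filters (1 CPM in 2 libraries, or none), no fold limit, the block, thinning and leaving out each replicate. R 4.3.3, Python 3.11 and scipy 1.17.1 were used.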

Additional observations from a re-analysis of the deposited data

How the results depend on the processing

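With RLE factors, other low-count filters, thinning or no fold limit, none of the 3 genes was called after injury at either age, as in the fit without a block, and the directions held. At P7+24h, P28+24h, P29 against P8 control and P28+24h against P7+24h, edgeR's exact test with all libraries called 5, 3, 972 and 1301 genes, its exact test of each pair of groups alone 6, 3, 1151 and 969, the replicate block 2, 102, 2893 and 3064, and the likelihood ratio test with the replicate block 36, 493, 3242 and 3274, against 0, 0, 242 and 380 in the quasi-likelihood fit. The difference between the ages had 5 and 200 calls in the blocked fits. Fitted to each pair of groups alone, the quasi-likelihood test called 2 genes at P28+24h and 989 and 67 in the last 2 comparisons. DESeq2 called 2 at P7+24h and 862 and 1019 there, and library size alone 138 and 229.

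After injury at P7 the CCL8/CCL13-like gene passed in edgeR's exact tests at an adjusted p of 0.0241 with all libraries and 0.0166 with the pair alone, and the CCL3/CCL4-like gene in the latter at 0.00236 and in DESeq2 at 0.0445. Adjusted p-values with the replicate block in edgeR were 0.00889 (CCL3/CCL4-like) at P7+24h, 0.0268 (CCL8/CCL13-like) and 0.0148 (CCL3/CCL4-like) at P28+24h, and 0.0334 (CCL8/CCL13-like) and 0.0251 (CCL2/CCL7-like) between injured ages. The likelihood ratio test with the replicate block gave 7.89e-07, 0.0301 and 1.42e-18 for the CCL8/CCL13-like, CCL2/CCL7-like and CCL3/CCL4-like genes after injury at P7, 3.03e-08, 0.000281 and 1.39e-11 after injury at P28, and 0.00396 and 0.0022 for the first pair between injured ages. It is the more lenient of the blocked tests. The CCL3/CCL4-like difference between the ages turned from -0.39 to 0.03 and 0.02 in the blocked edgeR fits, at adjusted p-values of 0.994 and 0.996. The CCL2/CCL7-like mean moved by more than its small SD, to 1.35 CPM at P7+24h when thinned and at P28+24h to 4.84 (TMM), 4.77 (RLE) and 4.201 CPM (thinned).

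Leaving out each replicate, without or with the replicate block (1 residual degree of freedom), gave from 0 to 51 calls at P7+24h, 0 to 960 at P28+24h, 0 to 3468 between controls, 0 to 3634 between injured ages and 0 to 720 for the difference. The edgeR adjusted p-values ran from 6.86e-06 to 1 (CCL8/CCL13-like) and 8.51e-54 to 1 (CCL3/CCL4-like) at P7+24h. At P28+24h they ran from 2.15e-07, 0.00127 and 1.73e-50 to 1 for the CCL8/CCL13-like, CCL2/CCL7-like and CCL3/CCL4-like genes. Between injured ages the ranges were 0.0271 to 0.821, 0.0169 to 0.693 and 5.35e-14 to 0.924 in that gene order, between controls 0.00283 to 0.803 (CCL3/CCL4-like), and for the difference 0.317 to 1 (CCL3/CCL4-like). Without P28+24h replicate 1 and without the block, the CCL3/CCL4-like change between injured ages reversed to -0.19. Its difference between the ages changed sign, to 0.15 and 0.24, without P7+24h replicate 1 and P28+24h replicate 2, and with the block it had no fixed sign. The causes were not tested. Fits with a replicate left out have a group of 1 library, so their smaller adjusted p-values are not read as stronger evidence. The single P29 control could not be left out, and the CCL2/CCL7-like gene fell under the filter when only P7+24h and P8 control libraries were fitted, as did both low-count genes in controls alone, where DESeq2 gave them no adjusted p. With another prior count or a library left out, 2 to 5 of the 5 nearest-pattern genes were shared.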
